A study of Mus musculus with 16 samples.

Results

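The comparison concerned CD4+ T cells that had met their antigen for a short time in recipients given an activating antibody against CD40, set against the same kind of cells that had met none in recipients given the same antibody. It was chosen by the sample labels alone, which put 2 arrays in each group, so 4 of the 16 arrays of the series were compared. All 16 were used to estimate the spread. The T cells carried the AND T cell receptor transgene, which recognises a moth cytochrome c peptide, and the congenic marker CD90.1. Lymph node cells of the transgenic donors were transferred, and CD4+CD90.1+ cells were sorted from subcutaneous lymph nodes 60 h later. The mice were of the B10.BR background and 6 to 8 weeks old.

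In the transient antigen group the recipients were Ii-rTA+, TIM+, received a short course of doxycycline ("short dox") and the CD40 antibody FGK45.5. In the no antigen group the recipients were Ii-rTA-, TIM+, received no doxycycline and the same antibody. The TIM transgene encodes the peptide under a doxycycline-controlled promoter, and Ii-rTA supplies the activator from the promoter of the invariant chain, which antigen-presenting cells use. The groups therefore differed in a recipient transgene and in doxycycline as well as in antigen, and these cannot be told apart. The labels do not say whether replicates came from separate mice, and the spread behind each p-value is that between these samples. The replicate numbers differed in sex-linked transcripts, as given further on, so replicates 1 and 2 were not repeats of the same cells.

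A naive CD4+ T cell that recognises its peptide on a dendritic cell leaves quiescence, grows, copies its DNA and divides, and takes up an effector programme. The receptor signal itself is read by immediate early factors such as Egr and Nr4a proteins, whose transcripts appear quickly. CD40 on dendritic cells is the receptor for CD40 ligand of T cells, and its engagement raises costimulatory ligands and cytokines on the presenting cell. Type 1 helper (Th1) cells, an effector form driven by the factor T-bet, make interferon gamma and use the chemokine receptor CXCR3 to enter inflamed tissue.

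After transient antigen with anti-CD40, 2548 of 18193 genes were called (14.0%), at an adjusted p under 0.05 in limma with the replicate number as a block. Of these 1915 rose (10.5%) and 633 fell (3.48%), and 1237 changed more than 2-fold, 1005 upward and 232 downward. The genes that rose included nearly all measured genes of DNA replication and mitosis, Tbx21 and Cxcr3 of the Th1 programme, the integrin gene Itgb1, annexins and S100 genes, and many genes of metabolism and ribosome assembly. Those that fell included genes of naive T cells such as Il7r and Bcl2, and the receptor-induced factors Egr1, Egr2 and Egr3. The differences of the replicate 1 pair and the replicate 2 pair had the same sign for 2546 of the called genes (99.9%), against 64.5% of all genes. The call rests on the mean of these same differences and favours genes of like sign, so the 99.9% is not separate evidence of agreement. For part of the called genes the arrays of the groups overlapped. The pairing matters to these counts: without the block 104 genes were called, 77 higher and 27 lower, and 1904 had an unadjusted p under 0.05. Of the named genes 17 were called without the block, among them Cxcr3, Itgb1, Cenph, Abca1, St8sia6 and Zbtb20. Cyclic loess scaling gave 2517 calls, with 1489 higher and 1028 lower, so that the share of higher calls was 59.2% in place of 75.2%. Leaving out the first transient array left 1067 calls, and leaving out the second no antigen array left 1109.

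**Figure D1:**
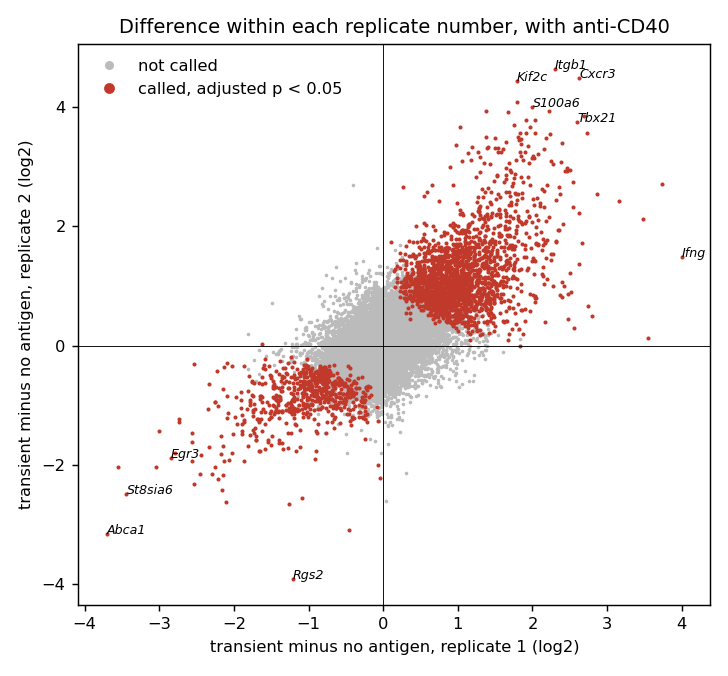
Each point is 1 of 18193 genes, with the difference of transient antigen minus no antigen in log2 units within replicate 1 on the horizontal axis and within replicate 2 on the vertical axis. Genes called at an adjusted p under 0.05 are red, and 2546 of the 2548 lie in the quadrants where both differences have the same sign. The call rests on the mean of both differences and so favours these quadrants.

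The arrays were close in mean log2(intensity + 1), at 4.88 and 4.86 on the transient antigen arrays, against 4.86 and 4.84 on the no antigen arrays. They differed more in mean intensity, at 120.6 and 101.4 on the transient antigen arrays, against 113.5 and 83.5 on the no antigen arrays. In both pairs the transient array was the brighter, and the second no antigen array was the lowest of all 16. Replicate 1 of both groups lay in a run of consecutive array numbers, and replicate 2 of the groups lay in different runs. With these runs as the block in place of the replicate number, 2223 genes were called and 1910 of them were shared. The replicate numbers also differed in the sex of the cells: Xist, the transcript of the inactive X chromosome, read 5.10 and 10.54 on the transient arrays of replicates 1 and 2, against 6.97 and 10.89 on the no antigen arrays, in log2(intensity + 1). Eif2s3y, a gene of the Y chromosome, read 9.03 and 2.80 on the transient arrays, against 9.84 and 2.75 on the no antigen arrays. Each pair thus compared cells of like sex markers, with Xist itself called lower, and the part of this in the results was not tested.

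The defining T cell markers were present: the summed intensity of 10 CD4 T cell markers was 7696 and 8477 on the transient arrays, against 10622 and 7600 on the no antigen arrays, with none called higher and 2 called lower. Markers of other cells were low but not absent. The 7 B cell markers summed to 351 and 402 in transient cells, against 296 and 505 in no antigen cells. Of these Ms4a1, which encodes CD20, fell by 1.66 ± 0.31 (adjusted p = 0.0011) and Fcer2a by 0.67 ± 0.21, while Cd22 rose by 0.90 ± 0.23. None of these 3 was called without the first transient array. The 11 dendritic cell and macrophage markers summed to 289 and 385 in transient cells, against 461 and 461 in no antigen cells, and 1 of them fell (0 without the first transient array). The 5 NK cell markers, of which activated T cells share Nkg7 and Eomes, summed to 1129 and 1415 in transient cells, against 659 and 360 in no antigen cells, with Nkg7 called higher and Eomes lower. Granulocyte, erythrocyte, stromal and CD8 T cell lists held no called gene. The part of such cells in the results was not tested. In RNA from sorted populations, fewer cells of a kind and less RNA per cell cannot be told apart.

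Genes of the Th1 programme were among the largest changes. Cxcr3, the receptor for interferon-induced chemokines, read 10.73 and 10.65 in transient cells, against 8.10 and 6.17 in no antigen cells, on the log2(intensity + 1) scale used for every level and difference here. It was the largest increase among the named genes, 3.55 ± 0.39 (SE, n = 2 pairs, limma adjusted p = 1.5e-05), an 11.7-fold difference. Tbx21, which encodes T-bet, read 7.75 and 6.64 in transient cells, against 5.15 and 2.89 in no antigen cells, and rose by 3.18 ± 0.34 (adjusted p = 1.1e-05). The no antigen mean of Tbx21 was below the median probe set of the arrays (4.37), so the size of its fold is less certain. For both genes every transient array stood above every no antigen array, and replicate 2 of the no antigen group was the lowest.

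The cytokine gene Ifng behaved less evenly. It read 10.08 and 5.97 in transient cells, against 6.08 and 4.49 in no antigen cells, so the groups overlapped although each pair rose, by 4.00 and 1.48. Its fitted difference was 2.74 ± 0.47 (adjusted p = 0.00056 with the block and 0.52 without it). Gzmb, which encodes the cytotoxic protease granzyme B, read 8.98 and 7.15 in transient cells, against 6.11 and 4.61 in no antigen cells, and rose by 2.70 ± 0.35 (adjusted p = 4.8e-05) with no overlap. Over the Th1 list 9 of 23 measured genes rose and 3 fell, with a median of 0.29 against −0.01 for all genes. Among those that fell was Ccl5, a chemokine of effector cells, at 5.43 and 5.57 in transient cells, against 7.50 and 7.48 in no antigen cells, a fall by 1.99 ± 0.24 (adjusted p = 2.3e-05).

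Of the helper cytokines and their receptors, Il21, which acts on B cells, rose by 1.86 ± 0.42 (adjusted p = 0.005 with the block and 0.35 without it). It read 8.63 and 6.36 in transient cells, against 6.13 and 5.15 in no antigen cells. Its difference was 1.18 to 2.54 when 1 of the 4 compared arrays was left out. Il2ra, the alpha chain of the IL-2 receptor, rose by 0.68 ± 0.20 (adjusted p = 0.027, and 0.051 with the array run as block). Its other probe set, brighter in transient cells, averaged 6.48 in transient cells, against 4.32 in no antigen cells. The Il2 transcript differed by 0.62 ± 0.25 and was not called (adjusted p = 0.12). Of the 25 genes of IL-2 and cytokine receptors 2 rose and 7 fell (36.0% called, against 14.0% of all genes), with a median of 0.00. Without the first transient array none rose and 4 fell, and without the second no antigen array 1 rose and 4 fell. Il7r, the receptor for the survival cytokine IL-7, fell by 1.83 ± 0.32 (adjusted p = 0.00068), with 8.85 and 7.91 in transient cells, against 9.94 and 10.47 in no antigen cells. Il6st and Il6ra, which form the IL-6 receptor, fell by 1.60 and 1.26 (adjusted p of Il6ra = 0.053 with the array run as block), and the TGF-beta receptor gene Tgfbr2 fell by 1.24.

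**Figure D2:**
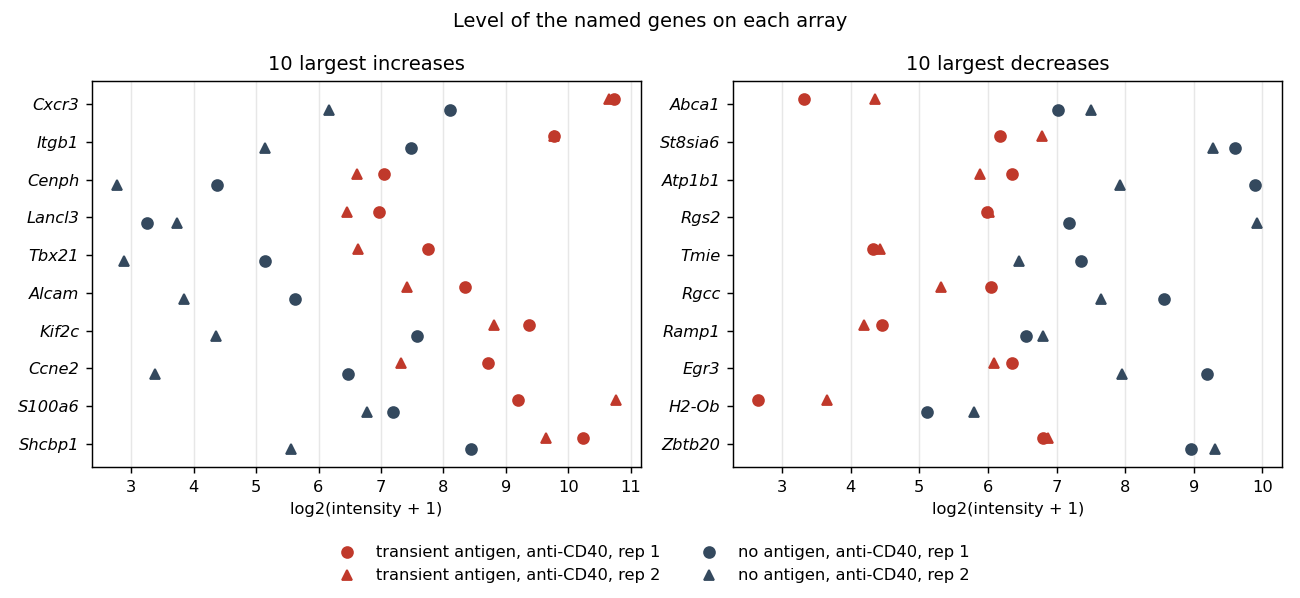
Levels in log2(intensity + 1) of the 10 largest increases (left) and 10 largest decreases (right) among the genes with no overlap between groups, with 1 marker per array. Red markers are transient antigen with anti-CD40, dark markers no antigen with anti-CD40, circles replicate 1 and triangles replicate 2.

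The cell cycle genes rose almost as a whole. Of 43 DNA replication genes 40 rose and none fell, with a median of 1.89 (1.49 in replicate 1 and 2.04 in replicate 2). Of 32 mitosis genes 30 rose and none fell, with a median of 2.16 (1.77 and 2.81), where the background share of higher calls was 10.5%. Both lists were chosen with earlier results of these data known and are not independent evidence. Ccne2, which encodes cyclin E2 of the G1 to S transition, read 8.71 and 7.32 in transient cells, against 6.48 and 3.38 in no antigen cells, and rose by 3.08 ± 0.40 (adjusted p = 4.5e-05). Cdc6, the loader of the MCM helicase onto replication origins, read 8.40 and 7.53 in transient cells, against 6.22 and 4.05 in no antigen cells, and rose by 2.83 ± 0.33 (adjusted p = 2.3e-05). Both genes were higher on each transient array than on either no antigen array, a condition for the 10 largest increases, Ccne2 among them. Rrm2, a subunit of ribonucleotide reductase, and Uhrf1, which maintains DNA methylation behind the fork, rose by 2.66 ± 0.45 and 2.53 ± 0.36. The 3 replication genes that were not called, singled out after their values were seen, were Orc1 (0.40 ± 0.20), Chaf1b (0.50 ± 0.23) and E2f1 (0.55 ± 0.25).

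In mitosis, Kif2c, a kinesin that takes apart microtubules at the kinetochore, read 9.37 and 8.81 in transient cells, against 7.58 and 4.36 in no antigen cells. It rose by 3.11 ± 0.45 (adjusted p = 0.0001), and its other probe sets differed by 1.99, −0.09 and 0.04. Cdk1, the kinase that starts mitosis, rose by 2.91 ± 0.39 (adjusted p = 5e-05), with 10.29 and 9.93 in transient cells, against 8.26 and 6.14 in no antigen cells. Cenph, a kinetochore subunit, rose by 3.27 ± 0.26 (adjusted p = 3.3e-06) from a no antigen level below the median probe set. Bub1 and Birc5, of the spindle checkpoint and the chromosomal passenger complex, rose by 2.88 ± 0.38 and 2.80 ± 0.35. The proliferation marker Mki67 rose by 2.37 ± 0.36. The 2 mitosis genes not called, also singled out afterwards, were Tpx2 (−0.91 ± 0.49) and Pttg1 (1.14 ± 0.59), whose arrays overlapped. Mitosis genes also differed between the no antigen arrays: the mean level over the list was 9.05 and 8.46 on the transient arrays, against 7.42 and 5.77 on the no antigen arrays. Without the block 7 replication genes and 3 mitosis genes were called.

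Cell cycle genes are known to share promoter elements, so the sequences in front of them were read from RefSeq (GRCm38.p6), as windows of 300 bases from 250 before to 50 after the annotated start. The first listed window of each gene was used, and not every measured gene had a window. Each window was searched on both strands for the CHR element TTTGAA, the E2F element TTTNGCGC, CCAAT and a single form of the sterol regulatory element. The CHR letters were found in 21 of 27 mitosis windows (77.8%), against 13.3% of 14452 windows of measured genes. The E2F letters were found in 10 of 35 replication windows (28.6%), against 2.03% of all. CCAAT was found in 21 of 27 mitosis windows (77.8%), against 38.2% of all. A match describes letters in a window and is not a binding site. The windows of 2 mitosis genes and 2 replication genes with matches are shown 5′ to 3′ on the gene's strand, with CHR matches in capitals for Cdk1 and Kif2c and E2F matches in capitals for Mcm5 and Mcm6, since these lists had the highest shares of called genes among the lists examined. They are Cdk1 (chr10:69352863-69353162, minus strand, 2 CHR matches), Kif2c (chr4:117178723-117179022, minus strand, 1 CHR match in reverse orientation), Mcm5 (chr8:75109259-75109558, plus strand, 2 overlapping E2F matches) and Mcm6 (chr1:128359656-128359955, minus strand, 3 E2F matches of which 2 overlap). Matches to the other elements, such as CCAAT, were left in lower case.
Cdk1: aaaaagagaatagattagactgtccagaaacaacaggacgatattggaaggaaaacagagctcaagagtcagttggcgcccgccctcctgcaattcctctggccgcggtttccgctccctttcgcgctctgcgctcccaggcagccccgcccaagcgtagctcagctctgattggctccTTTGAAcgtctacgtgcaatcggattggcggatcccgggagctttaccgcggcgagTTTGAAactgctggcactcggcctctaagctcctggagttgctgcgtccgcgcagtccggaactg
Kif2c: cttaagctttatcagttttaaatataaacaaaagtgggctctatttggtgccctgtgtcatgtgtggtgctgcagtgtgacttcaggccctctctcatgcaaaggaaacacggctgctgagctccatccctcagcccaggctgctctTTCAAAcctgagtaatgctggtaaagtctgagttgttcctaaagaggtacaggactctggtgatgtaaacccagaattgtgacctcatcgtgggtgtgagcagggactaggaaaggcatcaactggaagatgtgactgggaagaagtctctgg
Mcm5: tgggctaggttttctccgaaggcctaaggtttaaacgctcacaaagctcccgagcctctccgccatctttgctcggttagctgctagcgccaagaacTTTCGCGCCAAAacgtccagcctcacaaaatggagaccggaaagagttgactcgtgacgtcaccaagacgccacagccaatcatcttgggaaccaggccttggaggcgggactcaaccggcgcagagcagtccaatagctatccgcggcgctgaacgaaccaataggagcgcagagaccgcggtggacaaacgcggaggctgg
Mcm6: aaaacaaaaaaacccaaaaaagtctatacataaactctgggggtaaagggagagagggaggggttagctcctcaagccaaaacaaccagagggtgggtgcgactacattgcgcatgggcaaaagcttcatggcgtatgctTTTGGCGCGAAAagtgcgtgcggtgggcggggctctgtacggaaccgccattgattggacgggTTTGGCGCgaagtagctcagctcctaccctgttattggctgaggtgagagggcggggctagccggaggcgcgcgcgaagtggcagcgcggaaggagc
Mcm5 and Mcm6 encode subunits of the replicative helicase. They rose by 2.19 ± 0.32 (adjusted p = 0.00011) and 2.07 ± 0.35 (adjusted p = 0.00047), and were chosen for display after their values were seen.

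Of the 14 genes that restrain the cell cycle, 3 rose and 2 fell (35.7% called, against 14.0% of all genes). Cdkn3, a phosphatase that itself peaks in dividing cells, rose by 2.12 ± 0.24 (adjusted p = 1.8e-05), and the inhibitors Cdkn2c and Cdkn2d rose by 1.59 and 0.94. Btg1, an antiproliferative gene of resting lymphocytes, fell by 1.10 ± 0.33 (adjusted p = 0.031). The median of the list was 0.09, close to that of all genes. Without the second no antigen array 1 rose and 1 fell, and without the first transient array 3 rose and none fell. The calls of Btg1 and Cdkn2d were lost with the array run as block (adjusted p = 0.1 and 0.13).

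Many surface and cytoskeletal genes of effector cells rose as well. Of 22 measured annexin, S100 and effector surface genes 18 rose and none fell, with a median of 1.34 (11 rose when the second no antigen array was left out). Itgb1, the integrin beta 1 chain that binds extracellular matrix and VCAM-1, read 9.78 and 9.77 in transient cells, against 7.48 and 5.15 in no antigen cells, and rose by 3.46 ± 0.35 (adjusted p = 8e-06). S100a6, a calcium-binding protein of activated cells, read 9.20 and 10.77 in transient cells, against 7.19 and 6.77 in no antigen cells. It rose 8.01-fold, with an SE of 0.67 in log2 units (adjusted p = 0.0045 with the block and 0.14 without it). Its difference was 2.29 to 3.71 when 1 of the 4 compared arrays was left out. The transient arrays agreed closely for Itgb1 and less so for S100a6. The groups overlapped for neither, which was a condition for the 10 largest increases. Plac8 and Emp1 rose by 2.90 ± 0.41 and 2.79 ± 0.35. Alcam, an adhesion molecule that binds CD6, rose by 3.14 ± 0.32 (adjusted p = 8e-06), with 8.35 and 7.41 in transient cells, against 5.63 and 3.85 in no antigen cells. The memory marker Cd44 rose by 0.91 ± 0.28 (adjusted p = 0.037), but its arrays overlapped and the call was lost with the array run as block (adjusted p = 0.27) and with cyclic loess scaling (0.14). In the trafficking and adhesion list 4 of 31 genes rose and 2 fell (19.4% called, against 14.0% of all genes), with a median of 0.06. Fewer of them were called when either transient array or the second no antigen array was left out. The lymph node homing receptor Ccr7 (−0.54 ± 0.25), the egress receptor S1pr1 (−0.37 ± 0.24) and their regulator Klf2 (0.11 ± 0.26) were not called.

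Genes of growth and metabolism rose in number. Of 20 glycolysis genes 11 rose and none fell, with a median of 0.84. With cyclic loess scaling 10 rose and 2 fell, with a median of 0.52, and with the array run as block 10 rose and 1 fell. Hk2, the hexokinase that traps glucose in the cell, read 8.88 and 7.67 in transient cells, against 6.34 and 5.34 in no antigen cells, and rose by 2.44 ± 0.37 (adjusted p = 0.00016). Tpi1, triose phosphate isomerase, rose by 2.69 ± 0.32 (adjusted p = 2.3e-05), and Slc16a1, the lactate transporter MCT1, rose by 1.71 ± 0.22 (adjusted p = 4.4e-05). Odc1, the first enzyme of polyamine synthesis, rose by 2.51 ± 0.31 (adjusted p = 3e-05), with 11.29 and 9.62 in transient cells, against 9.33 and 6.56 in no antigen cells. The first no antigen array came close to the second transient array for Odc1 without reaching it.

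In the cholesterol pathway 12 of 20 genes rose and none fell, with a median of 1.08, and 7 rose without the first transient array. Idi1, isopentenyl diphosphate isomerase, read 9.70 and 8.58 in transient cells, against 7.24 and 5.61 in no antigen cells, and rose by 2.71 ± 0.26 (adjusted p = 8e-06). Sqle, squalene epoxidase, rose by 2.01 ± 0.23 (adjusted p = 2.1e-05). CCAAT, an element bound by NF-Y, was present in 15 of 16 windows of this list (93.8%), against 38.2% of 14452 windows of measured genes. It was in 57.1% of replication, 31.0% of ribosome biogenesis and 21.1% of annexin, S100 and effector surface windows. The single form of the sterol regulatory element that was searched was present in 0 of the 16 windows. That form was rare, in 27 of 14452 windows of measured genes (0.187%), and other forms were not searched. The 0 in so few windows therefore cannot show whether these genes lack the element.

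Ribosome biogenesis had 21 of 33 genes higher and none lower, with a median of 0.89. The nucleolar proteins Nolc1 and Nop58 rose by 1.52 ± 0.28 (adjusted p = 0.0009) and 1.44 ± 0.25 (adjusted p = 0.00058). Without the first transient array 6 genes of the list rose, and without the second no antigen array 8. Of 24 genes of protein folding in the endoplasmic reticulum 12 rose and none fell, with a median of 0.72, and 7 rose without the second no antigen array. They included the disulfide isomerase Pdia3 (1.83 ± 0.26) and the secreted chaperone Manf (1.70 ± 0.26). With cyclic loess scaling 11 of these 24 genes rose and 2 fell. Of 36 oxidative phosphorylation genes 27 rose, with a median of 0.71, led by the succinate dehydrogenase subunit Sdhd (1.75 ± 0.27) and the ATP synthase subunit Atp5b (1.65 ± 0.26). That count varied: 13 genes rose with cyclic loess scaling, 13 with the array run as block and 6 without the second no antigen array.

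**Figure D3:**
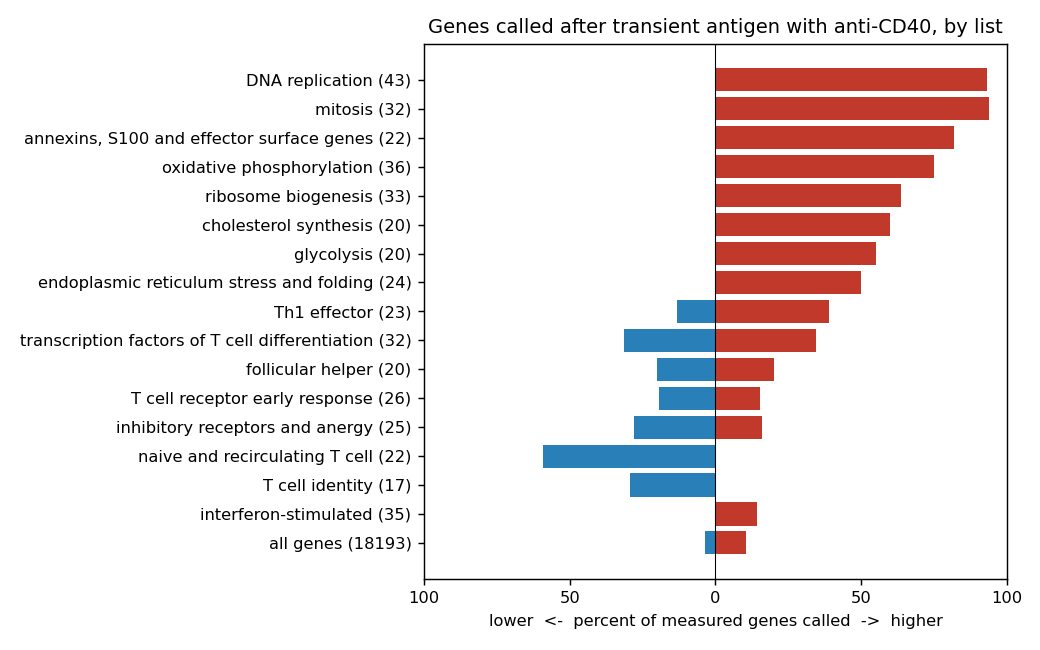
Percent of the measured genes of each list called higher (red, to the right) or lower (blue, to the left) after transient antigen with anti-CD40, with the number measured in brackets. DNA replication and mitosis reach 93.0% and 93.8% higher, and the bottom bar shows all 18193 genes at 10.5% higher and 3.48% lower.

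Genes of naive and recirculating T cells had the highest share of lower calls among the lists, with 13 of 22 lower, none higher and a median of −1.13, where the background share of lower calls was 3.48%. St8sia6, a sialyltransferase, read 6.17 and 6.79 in transient cells, against 9.60 and 9.28 in no antigen cells, and fell by 2.96 ± 0.29 (adjusted p = 8e-06). Bcl2, the survival factor of resting lymphocytes, read 8.18 and 7.62 in transient cells, against 9.84 and 9.40 in no antigen cells, and fell by 1.72 ± 0.20 (adjusted p = 2.3e-05). The pairs differed by 3.44 and 2.49 for St8sia6 and by 1.66 and 1.77 for Bcl2. Rgcc and Igfbp4 fell by 2.43 ± 0.27 and 2.23 ± 0.40. The T cell identity list was also shifted, with 5 of 17 genes lower and none higher, among them the adaptor Trat1 (−1.67 ± 0.29), the inhibitory receptor Cd5 (−1.05 ± 0.20) and the factor Lef1 (−1.15 ± 0.21). Its median was −0.69 in replicate 1 and 0.10 in replicate 2, and 10 genes fell with cyclic loess scaling and 3 without the first transient array.

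The largest decrease among the named genes was that of Abca1, the cholesterol exporter, at 3.32 and 4.35 in transient cells, against 7.02 and 7.50 in no antigen cells, a fall by 3.43 ± 0.33 (adjusted p = 8e-06). Its transient level was below the median probe set. The other 2 probe sets of Abca1 were dim in both groups and differed by 0.02 and 0.09, so the decrease rests on 1 probe set. Atp1b1, a subunit of the sodium pump, fell by 2.79 ± 0.31 (adjusted p = 1.5e-05). The factor Zbtb20 fell by 2.30 ± 0.26 (adjusted p = 2e-05), with 6.80 and 6.88 in transient cells, against 8.96 and 9.31 in no antigen cells. Rgs2, a brake on G protein signalling, fell by 2.57 ± 0.63 (adjusted p = 0.0083), by 1.21 in replicate 1 and by 3.92 in replicate 2, with an adjusted p of 0.062 when the array run was the block.

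The early response genes of the T cell receptor did not move as one. Of 26 measured 4 rose and 5 fell (34.6% called, against 14.0% of all genes), with a median of −0.08. Egr3, a factor induced by receptor signalling through calcium and NFAT, read 6.35 and 6.09 in transient cells, against 9.20 and 7.96 in no antigen cells, and fell by 2.36 ± 0.36 (adjusted p = 0.00017). Egr2 fell by 1.26 ± 0.26 (adjusted p = 0.0024), Nr4a3 by 1.37 ± 0.34 (adjusted p = 0.0097) and Cd69, the retention marker of recent activation, by 1.50 ± 0.28 (adjusted p = 0.0012). Each of the Egr3 and Egr2 levels was lower in transient cells than in either no antigen sample, a condition for the 10 largest decreases, Egr3 among them. With persistent antigen and anti-CD40 the means were 5.70 for Egr3, 6.76 for Nr4a3 and 7.25 for Cd69. These too were below the no antigen means of 8.58, 9.02 and 9.04. The mean of Egr2 was 8.75 with persistent antigen, against 8.72 with no antigen. The part of antigen length in these values was not tested. Irf4, whose level follows receptor strength, rose by 1.41 ± 0.27 (adjusted p = 0.0012), but its arrays overlapped. Nr4a1 (−0.69 ± 0.28) and Myc (0.15 ± 0.24) were not called. The 4 genes that rose were not called when the second no antigen array was left out. Of 22 dissociation and immediate early genes, which respond to cell handling, 6 fell and 2 rose, and those that fell included Fos (−1.78 ± 0.47) and Dusp1 (−1.96 ± 0.29). The call of Fos was lost with the array run as block (adjusted p = 0.12). Without the second no antigen array 3 of this list fell and none rose. The part of handling in the fall of the Egr genes was not tested.

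Transcription factors of T cell differentiation moved both ways, with 11 of 32 higher and 10 lower (65.6% called, against 14.0% of all genes). Maf, a factor of IL-10 and IL-21 producers, rose by 2.23 ± 0.34 (adjusted p = 0.00017) and Ahr, the aryl hydrocarbon receptor, by 2.17 ± 0.36 (adjusted p = 0.00038). Ahr read 8.16 and 8.00 in transient cells, against 6.37 and 5.45 in no antigen cells, with close transient arrays and no overlap. Its other probe set averaged 4.64 in transient cells, against 4.76 in no antigen cells, so the rise rests on 1 probe set. Prdm1, which encodes Blimp-1, rose by 1.43 ± 0.45 (adjusted p = 0.041), by 2.56 in replicate 1 and by 0.29 in replicate 2, and its adjusted p was 0.057 with cyclic loess scaling. Bcl6, the factor that Blimp-1 opposes, fell by 1.13 ± 0.25 (adjusted p = 0.0036). Ikzf2, which encodes Helios, fell by 1.98 ± 0.40 (adjusted p = 0.0021). Without the second no antigen array 3 factors rose and 6 fell, and without the first transient array 5 rose and 4 fell.

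Inhibitory and costimulatory receptors were mixed. Ctla4, the competitor of CD28, rose by 1.44 ± 0.25 (adjusted p = 0.00064) and the costimulator Icos by 1.16 ± 0.25 (adjusted p = 0.003), and the arrays overlapped for both. Havcr2, which encodes TIM-3, rose by 1.67 ± 0.31 (adjusted p = 0.0012) from a no antigen level below the median probe set. Pdcd1 (0.44 ± 0.21), Lag3 (0.26 ± 0.26), Tnfrsf4 (0.78 ± 0.33), Tnfrsf9 (−0.60 ± 0.24) and Tnfrsf18 (−0.50 ± 0.34) were not called. Of 25 inhibitory and anergy genes 4 rose and 7 fell (44.0% called), and of 23 costimulation genes 1 rose and 4 fell (21.7%). Over all genes 14.0% were called, 10.5% higher and 3.48% lower. The inhibitory list kept 4 calls without the first transient array, 5 without the second no antigen array and 7 without the second transient array. The costimulation list kept 2 calls without the second transient array and 3 when any other of the 4 arrays was left out. Foxp3, the regulatory T cell factor, was not called (−0.39 ± 0.17), and both group means were below the median probe set. Interferon-stimulated genes stood near the background, with 5 of 35 higher (14.3%) and a median of 0.04, −0.31 in replicate 1 and 0.45 in replicate 2, and 4 rose and 3 fell with cyclic loess scaling. Without the second no antigen array 1 of them was called.

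Whether the effect of transient antigen depended on anti-CD40 was tested as the difference between its effect with anti-CD40 and its effect with PBS, for which the 3 transient and 3 no antigen arrays with PBS were used. The effect differed for 672 genes (3.69%), 562 with a more positive and 110 with a more negative effect under anti-CD40. Leaving out the first transient anti-CD40 array left 99 genes, leaving out the second no antigen anti-CD40 array left 107, and without the block 0 were called (895 at an unadjusted p under 0.05). With replicate 3 left out of every group that had one, an alternative added after seeing the data, 278 were called. Leaving out the first transient PBS array left 399, and leaving out the third left 414. With cyclic loess scaling 776 were called, 506 of them more positive and 270 more negative.

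In DNA replication 35 of 43 genes had a more positive effect with anti-CD40, and the median effect was 1.89 with anti-CD40 against 0.11 with PBS. Leaving out the second no antigen anti-CD40 array left 10 of these genes, and leaving out the first transient anti-CD40 array left 24. Ccne2 differed by 2.95 ± 0.52 (adjusted p = 0.0046), with an effect of 0.13 ± 0.33 with PBS. Mitosis had a median effect of 2.16 with anti-CD40 against 0.92 with PBS, and 12 of 32 genes differed, with 1 left without the second no antigen anti-CD40 array, 2 without the first transient and 23 without the first no antigen array. In ribosome biogenesis 15 of 33 genes differed, and the median effect was 0.89 with anti-CD40 against −0.17 with PBS, with 3 called without the first transient anti-CD40 array and 5 without the second no antigen anti-CD40 array.

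Among single genes the difference was large for Gzmb (2.88 ± 0.46, adjusted p = 0.0033) and Ahr (2.78 ± 0.46, adjusted p = 0.0037). The effect on Gzmb was 2.70 with anti-CD40 and −0.18 with PBS, and that on Ahr 2.17 with anti-CD40 and −0.61 with PBS. For the probe set of Ahr used here the transient anti-CD40 arrays were the highest of all 16. Ccl5 differed in the other direction by −2.05 ± 0.30 (adjusted p = 0.0033), with an effect of 0.06 with PBS. Rsad2, an antiviral gene, differed by −1.98 ± 0.53 (adjusted p = 0.045) and is a gene where the effect with PBS was the larger, at 1.83, against −0.15 with anti-CD40.

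For other genes the difference of effects was not called. Cxcr3 rose by 3.55 with anti-CD40 and differed by 4.38 with PBS, and the difference of effects was −0.83 ± 0.50 (adjusted p = 0.46). For Itgb1 the effects were 3.46 with anti-CD40 and 3.37 with PBS, with a difference of 0.09 ± 0.45. For Tbx21 the effects were 3.18 with anti-CD40 and 1.62 with PBS, and the difference of 1.56 ± 0.43 missed the threshold (adjusted p = 0.052). The annexin and S100 list had median effects of 1.34 with anti-CD40 and 1.30 with PBS. A difference that was not called does not show that the effects were equal.

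**Figure D4:**
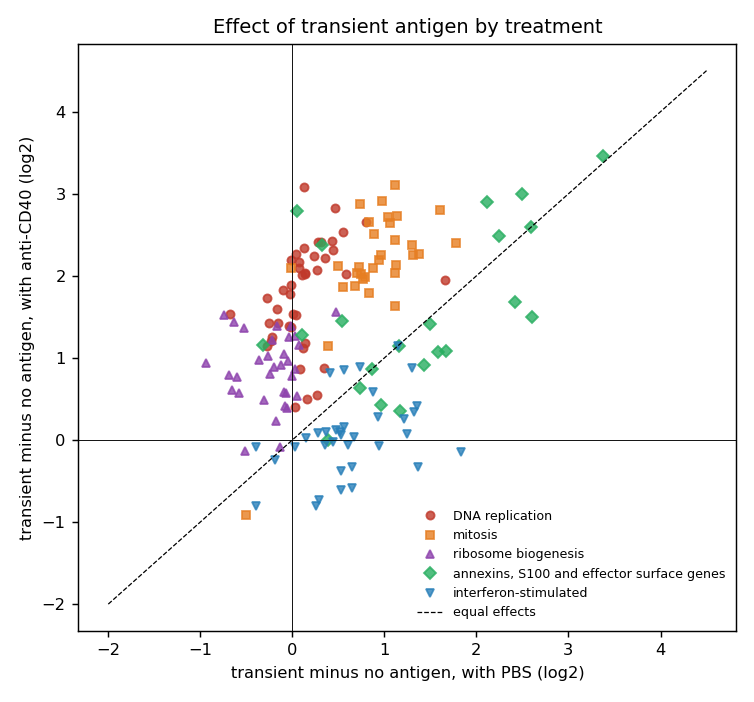
Effect of transient antigen in log2 units with anti-CD40 (vertical) against that with PBS (horizontal), 1 point per measured gene of 5 lists. DNA replication genes lie high above the dashed line of equal effects near 0 on the horizontal axis, while annexin and S100 genes mostly lie nearer to that line.

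Across the 3 antigen regimes with anti-CD40, levels after transient antigen were set beside those after persistent antigen. Mean Kif2c was 5.97 with no antigen, 9.09 with transient and 9.37 with persistent antigen, and mean Cdc6 was 5.14, 7.96 and 8.00 in the same order. St8sia6 averaged 9.44, 6.48 and 5.88. Bcl2 averaged 9.62, 7.90 and 7.23. These comparisons share the no antigen arrays, and transient against persistent antigen was not tested here.

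**Figure D5:**
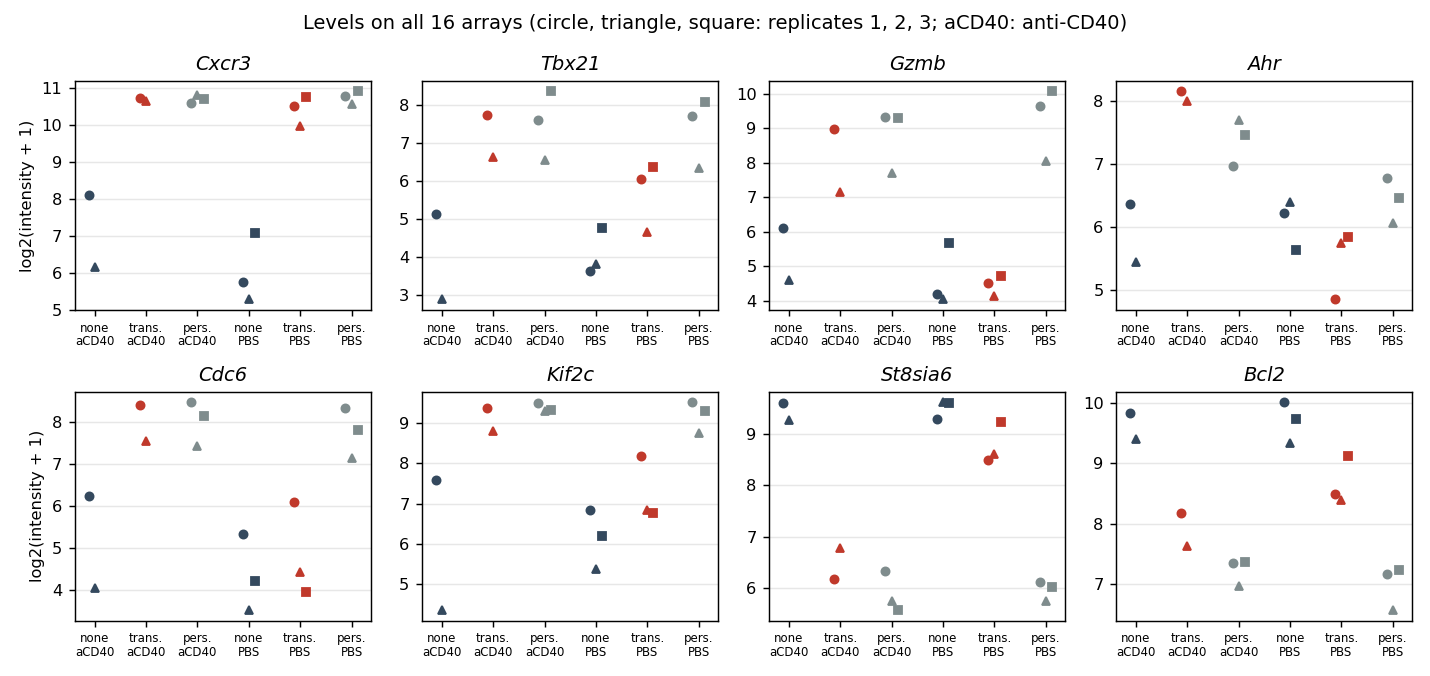
Levels of 8 genes in log2(intensity + 1) on all 16 arrays, with no, transient and persistent antigen from left to right, first with anti-CD40 (aCD40) and then with PBS. Circles, triangles and squares are replicates 1, 2 and 3, and the Ahr panel shows the 2 transient anti-CD40 arrays above all others.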

How the data were processed

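RNA of sorted T cells was measured on 16 arrays of 45101 probe sets, with RNA extracted in Trizol and amplified in 2 rounds, per the labels' protocols. The authors deposited 1 intensity per probe set and array. RMA is named in the submitters' processing notes, with a version not given in the sources used here. They run from 2.83 to at most 13508 and were read as linear, then used as log2(intensity + 1) with no further scaling, which shrinks differences between dim genes. The number of arrays limits the precision. Of the probe sets 35890 were in the table of gene names (932 with several symbols) and 9211 were not. The 34945 with 1 symbol, leaving out 64 array controls, gave 18193 genes, and the probe set with the highest mean over all arrays stood for each. Among the named genes 66 had several probe sets, and 16 had one of opposite sign.

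Group means of all 16 arrays were fitted by limma (3.58.1, under R 4.3.3), with an intensity trend and the replicate number as a fixed block. The Benjamini-Hochberg adjustment ran over all 18193 genes, and a gene with an adjusted p under 0.05 is called. The fits were also run on simulated data drawn from the blocked fit itself, which cannot show whether the replicate numbers pair the arrays. The labels number the replicates but name no shared animal or day. Arrays of the same number deviated together from their group means. In 36 such pairs the correlation of deviations was 0.48 to 0.81 (median 0.68), so the numbers were taken to pair the arrays. The median over 70 pairs with different numbers was −0.53. Deviations within a group cancel out, so this negative value follows from the same-number correlations and is not separate evidence.

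Genes named are, among called genes with no overlap between arrays and a higher mean above the median probe set, the 10 largest increases and decreases, leaving out clone names, receptor segments and sex-linked markers. To these come up to 4 largest changes of each list with 3 or more calls, a fixed list of T cell genes, and the 6 largest differences of effects in each direction. The comparison, the lists and the rule were chosen with earlier results of these data known. Alternatives were no block, array run as block, the compared groups alone, no trend, dim genes left out, mean of probe sets, cyclic loess, array weights, pseudocount 16 and each array left out. The use of replicates 1 and 2 only was added after seeing the data.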

Additional observations from a re-analysis of the deposited data

Results flagged for a closer look

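The effect of transient antigen, in log2 units, differed between anti-CD40 and PBS for 672 genes by an interaction term in limma with the replicate block, and the genes named here are those of them that met the naming rule. The values are the effect with anti-CD40 minus the effect with PBS. More positive with anti-CD40 were the cell cycle genes Ccne2 (2.95), Cenph (2.66), Cdc6 (2.37), Bub1 (2.15), Uhrf1 (1.98) and Cdk1 (1.95). The same held for the metabolic genes Odc1 (2.60), Hk2 (2.58), Idi1 (1.95), Tpi1 (1.88), Slc16a1 (1.84), Sqle (1.66), Pgam1 (1.55) and Atp5b (1.44). Of ribosome assembly and protein folding, Nolc1 (2.26), Nop58 (2.07), Nop16 (1.57), Pdia6 (1.54), Hsph1 (1.47), Manf (1.30) and Pdia3 (1.28) were more positive. The remaining genes with a more positive effect were Gzmb (2.88), Ahr (2.78), Emp1 (2.73), Lancl3 (1.61) and Pim1 (1.29). More negative with anti-CD40 were St8sia6 (−2.23), Tdrp (−2.08), Ccl5 (−2.05), Rsad2 (−1.98), Mgst2 (−1.90), Ifit1bl1 (−1.81), Abca1 (−1.74), Cd86 (−1.67) and Zbtb20 (−1.58). Without the replicate block none of these passed.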

How the results depend on the processing

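Of 109 named genes called after transient antigen with anti-CD40, all kept their direction under each alternative run, with 2 of them not measured once dim genes were left out. Between 82 and 108 stayed called under the alternatives other than dropping the block, and 17 without it, with the lowest counts without the second no antigen array (82) and the first transient array (83). For these genes and the lists only the 4 compared arrays were left out in turn. With no replicate block the comparison called 104 genes in place of 2548, and the difference of effects 0 in place of 672. Lists without the block kept from 0 to 7 called genes. With replicates 1 and 2 only, chosen after seeing the data, the difference of effects called 278 genes. Leaving out each array in turn, the comparison called between 1067 and 2870 genes and the difference of effects between 99 and 879, and a group left with 1 array was assumed to vary like the others. The causes were not tested. The comparison stayed within 1.5 times its count under the other alternatives (2219 to 2804 genes). The blocked fit is the one reported throughout, and the pairing rests on the correlations of the arrays and not on a statement in the labels. Dim genes have little signal over background, which limits the sizes given for them.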

Other observations

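Further gene lists moved both ways or little after transient antigen with anti-CD40, in limma with the replicate block. Over all genes 14.0% were called, 10.5% higher and 3.48% lower. Of 20 follicular helper genes 4 rose and 4 fell, and Il21 rose while Bcl6 fell. Without the first transient array 4 follicular helper genes were called, and without the second no antigen array 5. Of 17 regulatory T cell genes 4 rose and 4 fell: Nrp1, a semaphorin co-receptor, rose by 1.82 ± 0.38, and the orphan receptor gene Gpr83 fell by 1.64 ± 0.25. That list kept 3 calls without the first transient array, 3 without the second no antigen array and 4 without the first no antigen array. Of 16 Th2 and Th17 genes 3 rose, with Rora at 1.16 ± 0.38 (adjusted p = 0.24 with the array run as block), and Il4ra fell by 0.70 ± 0.21, and 2 were called without the first transient or the second no antigen array. Of 25 genes of cell death and survival 5 rose and 3 fell, with 3 called without the first transient array and 5 when either no antigen array was left out. The survival kinase Pim1 rose by 1.32 ± 0.27 and the inflammatory caspase Casp1 by 1.20 ± 0.27. Of 20 genes induced by interferon gamma or used in antigen processing 2 rose and 2 fell (20.0% called, against 14.0% of all genes), with a median of −0.01. Those that rose were Cxcl10 (0.65 ± 0.19) and Erap1 (0.64 ± 0.20), and those that fell were H2-K1 (−0.81 ± 0.18) and Irf1 (−0.73 ± 0.19). None of these 20 was called without the first transient array, and 2 were called when either no antigen array was left out. Of 4 plasma cell markers 1 rose and 1 fell, and none was called without the second no antigen array.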
